A study of Mus musculus with 14 samples.

Results

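The results below describe the mean of 2 treatment effects on gene expression in mouse BFU-E cells: the effect of a compound coded OB and the effect of a compound coded PD, each taken against the DMSO controls of its own set. BFU-E (burst-forming unit erythroid) cells are early progenitors of the red cell lineage, and here they came from the fetal liver of C57BL/6 mice and were kept in StemSpan SFEM II medium. The OB set held 3 libraries with DMSO and 3 with compound OB at 100 µM, and the PD set held 3 with DMSO and 3 with compound PD at 3 nM. These 12 RNA libraries were taken from the 14 samples of the series, and the 2 chromatin samples were not analysed here. The labels give no age, treatment time or further additive, and do not say whether the 3 libraries of a group came from separate animals or cultures, so the p-values measure only the spread between these libraries. Compound, dose and set went together throughout and cannot be told apart. The 2 compounds had separate controls.

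Both sets listed 22269 gene names in usable form. Of these, 9254 had a mean of at least 1 FPKM (fragments per kilobase of transcript, scaled to the total of mapped fragments) in each set and were tested. Each effect is a difference on the log2(FPKM + 1) scale, where low genes show less than their full change, and the average effect weights the compounds equally. A gene counted as called when its adjusted p (limma, Benjamini-Hochberg over the 9254 genes, two-sided) was under 0.05. The average can pass this test through 1 compound alone, so a stricter test asked for an effect of both: its p is the larger of the 2 single p-values, taken as 1 where the effects differ in sign.

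BFU-E cells divide under stem cell factor, which signals through the receptor KIT, and under glucocorticoids, and they later come under the control of erythropoietin. Each division either keeps the progenitor state, which is called self-renewal, or moves the cell toward differentiation. The transcription factor GATA2 marks the progenitor state and gives way to GATA1 and KLF1, which drive the genes of globin, heme and the red cell membrane. Differentiating cells then lose KIT, lay down the red cell membrane skeleton and take up iron through the transferrin receptor. The series title places the study in BFU-E self-renewal.

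The average effect called 2 genes of 9254, a share of 0.0216%: Pygl rose and Ndrg2 fell. Each direction held 1 gene, a share of 0.0108%. The stricter test of both compounds called no gene in either direction, a share of 0%, and its smallest adjusted p was 1. At an unadjusted p under 0.05, the average test held 609 genes and the stricter test 16. With limma's array weights, which give less weight to variable libraries, the counts were 393 higher and 166 lower, where the DMSO library numbered 1 of the PD set had a weight of 0.112 and that of the OB set 0.211. The stricter test still called none under that weighting (smallest adjusted p = 0.0705). Leaving out single libraries gave 1 to 4 genes higher and 1 to 3 lower. The changed counts were 4 higher and 3 lower without the PD set's DMSO library 1, 2 lower without its DMSO library 2, and 2 higher without the OB set's DMSO library 1.

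The promoters of both called genes are shown because they are the sequences next to the only 2 transcripts that passed. They come from RefSeq on GRCm38.p6 and run from 250 bases before to 50 after the annotated start, on the minus strand, in the order Pygl at chr12:70227634-70227933 and the first annotated start of Ndrg2 at chr14:51913955-51914254. Capitals mark matches to 2 of 6 motifs searched, the metal response core TGCGCNC and the hypoxia response core ACGTG.
Pygl: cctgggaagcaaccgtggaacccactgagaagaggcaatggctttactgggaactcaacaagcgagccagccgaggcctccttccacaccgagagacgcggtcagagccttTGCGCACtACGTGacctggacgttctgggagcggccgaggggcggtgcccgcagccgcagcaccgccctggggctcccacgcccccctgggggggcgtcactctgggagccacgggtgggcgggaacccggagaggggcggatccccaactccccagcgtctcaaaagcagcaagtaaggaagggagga
Ndrg2: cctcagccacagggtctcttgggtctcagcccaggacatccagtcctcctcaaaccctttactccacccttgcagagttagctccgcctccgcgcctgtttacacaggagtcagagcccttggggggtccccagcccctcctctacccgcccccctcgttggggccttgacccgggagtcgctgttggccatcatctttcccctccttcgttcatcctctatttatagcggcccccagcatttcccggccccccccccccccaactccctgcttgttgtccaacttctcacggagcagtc
In the Pygl window the 2 cores stood side by side without overlap. The Ndrg2 window held none of the 6 motifs, which says only that these letters are not in that window. Such short motifs are common: over both strands, 31.4% of the 7450 matched promoters of tested genes held the metal response core and 31.1% the hypoxia core. The other motifs searched were the cAMP response element TGACGTCA (4.0%), the amino acid response element TGATGNAA (2.5%), the GATA site AGATAA (7.6%) and the sterol element (0.2%).

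Pygl encodes the liver form of glycogen phosphorylase, which releases glucose units from glycogen, and lies at chr12:70190815-70227683 (GRCm38.p6). It stood at 4.56, 3.95 and 5.90 FPKM in the DMSO libraries 1 to 3 of the OB set and at 15.02, 15.93 and 18.59 FPKM with compound OB. In the PD set it stood at 28.1, 45.1 and 47.3 FPKM with DMSO and at 75.1, 71.2 and 72.2 FPKM with compound PD. In each set all treated libraries lay above all DMSO libraries, and every PD library was above every OB library. The mean went from 4.80 ± 1.00 to 16.5 ± 1.86 FPKM (SD, n = 3) in the OB set, a ratio of 3.44, and from 40.2 ± 10.5 to 72.8 ± 2.05 FPKM (SD, n = 3) in the PD set, a ratio of 1.81. Its average effect was 1.24 (SE 0.14, limma adjusted p = 0.00294), made of 1.60 for compound OB and 0.88 for compound PD. Tested for each compound alone, Pygl passed for OB (adjusted p = 0.0135) and not for PD (adjusted p = 0.152). The effects differed by 0.72 (SE 0.28), which did not pass over all genes (adjusted p = 0.801).

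Ndrg2, a member of the N-myc downstream regulated family, fell and lies at chr14:51905271-51914004. In the OB set it stood at 7.84, 6.41 and 6.10 FPKM with DMSO and at 4.80, 4.50 and 5.23 FPKM with compound OB. In the PD set it stood at 43.1, 35.2 and 38.8 FPKM with DMSO and at 14.5, 14.2 and 14.3 FPKM with compound PD. The groups did not overlap in either set, and the gap was wide in the PD set and narrow in the OB set. The means were 6.78 ± 0.93 and 4.84 ± 0.37 FPKM (SD, n = 3) in the OB set, and 39.1 ± 3.96 and 14.3 ± 0.14 FPKM (SD, n = 3) in the PD set. Its average effect was -0.90 (SE 0.10, limma adjusted p = 0.00294), made of -0.41 for OB and -1.38 for PD. Alone, compound PD passed (adjusted p = 0.00214) and compound OB did not (adjusted p = 1), and their difference of 0.97 (SE 0.20) did not pass (adjusted p = 0.330). In an additive fit that gives both sets 1 common treatment term, the Ndrg2 call was lost (adjusted p = 0.242). Pygl stayed called in 28 of 28 alternative fits (adjusted p from 4.88e-05 to 0.0235) and Ndrg2 in 27 of 28.

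**Figure D1:**
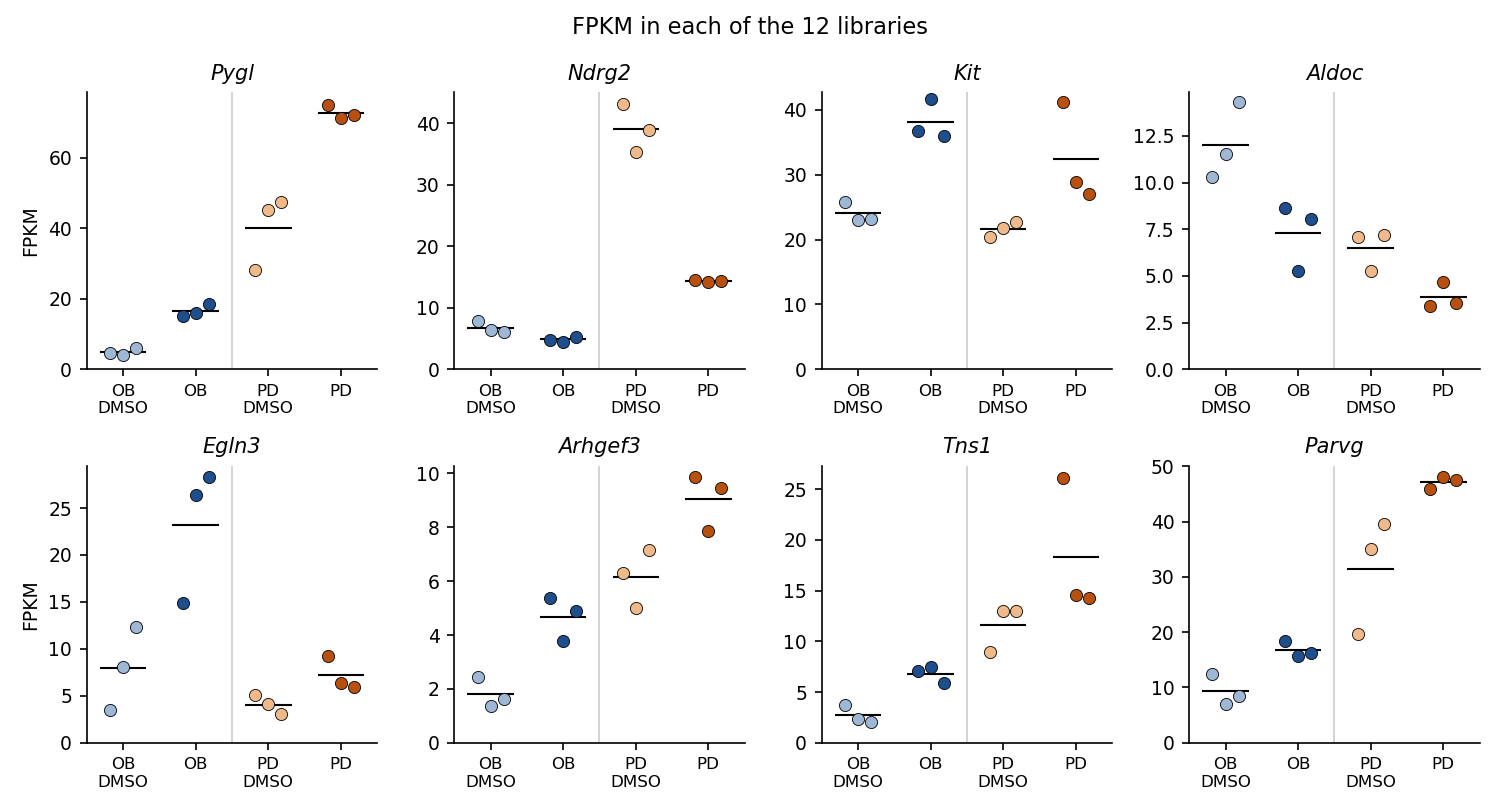
FPKM (y axis, linear, from 0) of 8 genes by group (x axis), with 1 point for each of the 12 libraries and a line at each group mean. For Pygl every treated library lay above every DMSO library of its set, and for Ndrg2 every treated library lay below.

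Libraries of the same number deviated together in the OB set, mostly as library 1 against libraries 2 and 3. Fits with the replicate number as a block were therefore compared. With the block in both sets, 5 genes were called higher (0.054%) and 2 lower (0.0216%). The genes added to Pygl (adjusted p = 0.0175) and Ndrg2 (adjusted p = 0.0232) were Mt2, Egln3, Tph1 and Fcnb above and Ccl27a below. A block in the OB set alone called 3 higher and 1 lower: Pygl, Egln3 and Fcnb, and Ndrg2. It was chosen after seeing the data because only that set showed these shared deviations. The same block with the PD set's DMSO library 1 left out, also chosen after seeing the data, called 56 higher and 37 lower. Those 93 genes, of 9254 tested, included 5 of the 20 tested megakaryocyte markers and 3 of the 6 tested later granulocyte markers. They also included 4 sex-linked transcripts. With all 12 libraries, 70 of the 93 had effects of the same sign. Over all tested genes, 36% had both effects above 0 and 18.5% both below. The 93 were called by an average of these 2 effects, which favours the same sign, so the shares do not measure sharing. For 8 the groups did not overlap in either set: Pygl, Egln3, Kit, Parvg, Arhgef3, Cela1 and Myh10 above and Ndrg2 below. Such genes made up 0.475% of all tested genes above and 0.173% below.

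Egln3, an oxygen-sensing prolyl hydroxylase that targets hypoxia-inducible factors, rose in both fits with a block (adjusted p = 0.0232 and 0.0331) and not in the fit without it (average effect 1.11, SE 0.25, adjusted p = 0.380). It stood at 3.47, 8.12 and 12.4 FPKM with DMSO and at 14.9, 26.4 and 28.3 FPKM with compound OB. In the PD set it stood at 5.04, 4.09 and 3.02 FPKM with DMSO and at 9.22, 6.33 and 5.96 FPKM with compound PD. No group overlapped the other in either set, and each compound OB library lay far above the DMSO library of its own number. The effect was 1.52 for OB and 0.69 for PD.

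Of the other genes called with the block, 3 had uneven effects. Mt2, a metal-binding metallothionein, had an effect of 2.10 for OB and 0.18 for PD (adjusted p = 0.499 without the block, 0.0175 with it), and it was not called when median-ratio scaling was added to the block. Its values were 82.9, 126.6 and 156.3 FPKM with DMSO and 363.4, 559.2 and 650.2 FPKM with compound OB, while the PD groups overlapped. Tph1, the first enzyme of serotonin synthesis, had effects of 1.39 and 0.41 (adjusted p = 0.15 without and 0.0373 with the block), and its PD groups overlapped too. It also passed without a block where each set was fitted alone (adjusted p = 0.0419). Fcnb, a ficolin of granulocytes, showed the reverse, with effects of 0.12 for OB and 1.52 for PD. It stood at 0.56 to 4.0 FPKM with DMSO and 1.02 to 3.70 FPKM with compound OB, against 75.8 to 91.2 and 218.9 to 269.0 FPKM in the PD set (adjusted p = 0.608 without and 0.0446 with the block). Ccl27a, a chemokine gene, had even effects, -1.02 and -1.03 (adjusted p = 0.566 without and 0.0285 with the block). Its OB groups overlapped, at 8.73, 3.18 and 4.44 FPKM with DMSO against 4.40, 0.64 and 1.97 FPKM with compound OB. In the block on the OB set alone, Mt2, Tph1 and Ccl27a did not pass (adjusted p = 0.211, 0.177 and 0.107).

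Across the 9254 genes the 2 estimated effects were nearly uncorrelated. Both lay above 0 for 3335 genes (36%) and both below 0 for 1710 genes (18.5%), while 2209 genes (23.9%) were above 0 for OB and below for PD and 2000 (21.6%) the reverse. Across genes, which are not independent replicates, the effects correlated with Pearson's r of 0.02 and Spearman's rank coefficient of 0.07, as a description. The PD effects spread more widely, with an SD of 0.302 against 0.194 for OB, so the average leaned toward compound PD. The median SE of a single effect was 0.195 for either compound, about as large as the spread of the OB effects. Error of that size pulls a correlation toward 0, so these coefficients do not show that the true effects are unrelated. Among the 482 genes with an unadjusted p under 0.05 and an average above 0 (5.21%), the PD effect was the larger in 414 (85.9%), and 416 had effects of the same sign. Among the 127 below 0 (1.37%), the PD effect was the larger in 105 (82.7%), and 113 had the same sign. Choosing genes by their average favours effects of the same sign, so these counts do not measure sharing. An unadjusted p under 0.05 for each compound was reached by 12 of the 482 and 4 of the 127. Above 0 these were Pygl, Tns1, Arhgef3, Parvg, Gfod1, Kit, Id1, Trim35, Zkscan17, Hhex, Man2c1 and Cela1, and below 0 they were Ccl27a, Ndrg2, Aldoc and Fam213b. Hhex, a homeobox factor of early blood cells, had effects of 0.48 and 0.39. Apart from Pygl and Ndrg2, none of the 16 passed for the average in the fit without the block.

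**Figure D2:**
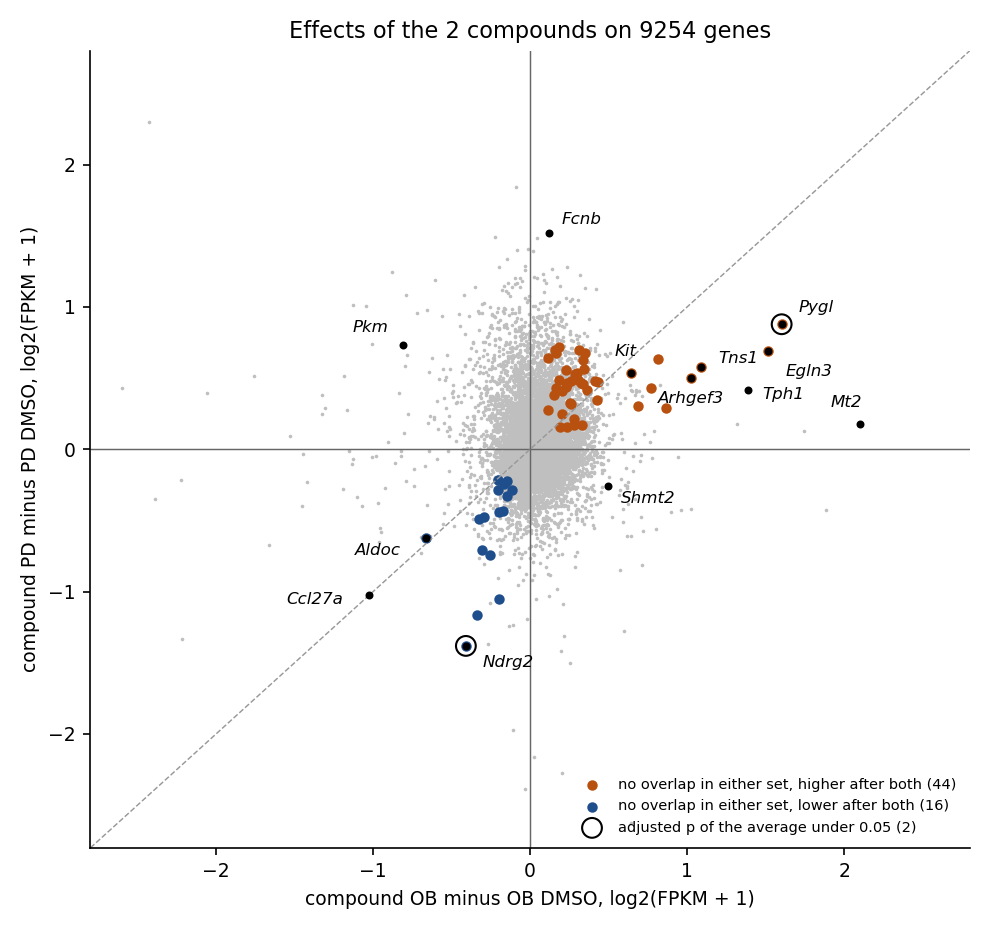
Effect of compound OB (x axis) against effect of compound PD (y axis) for the 9254 tested genes, both as differences of log2(FPKM + 1). The cloud was wider along the PD axis and showed little slope. Coloured points are the 44 and 16 genes without overlap in either set, and rings mark Pygl and Ndrg2, which lay where both effects have the same sign.

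The sign of the average depended on scaling. The median average effect over all tested genes was 0.05, with 5797 genes above 0 (62.6%) and 3457 below. After median-ratio scaling the split was 4562 above and 4692 below, and after quantile normalization 4439 above and 4815 below. Without the PD set's DMSO library 1 it was 4659 above and 4595 below. Without that library and the OB set's DMSO library 2 it was 4202 above and 5052 below. Leaving out both OB libraries numbered 1 gave 5984 above and 3270 below. With all 12 libraries, counts of list members above 0 are therefore read beside 62.6%, and counts of members with both effects above 0 beside 36%. Counts without the libraries named here are read beside the split given for them.

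Some libraries stood apart before any comparison. FPKM values summed to between 529002 and 696426 a library, 9458 to 10482 genes reached 1 FPKM, and the depth in reads is unknown. The PD set's DMSO library 1 was the farthest from its group, with a median deviation of -0.19 over genes. It also differed in sex-linked transcripts: Xist stood at 6.40 FPKM there and at 103.6 and 109.2 FPKM in the group's other libraries, and the Y-linked Eif2s3y at 52.1 against 4.82 and 6.06 FPKM. The compound PD libraries lay between, at 26.4 to 58.9 FPKM for Xist and 17.6 to 21.7 FPKM for Eif2s3y, so DMSO libraries 2 and 3 also stood apart from them. Without that library the genes called beside Pygl and Ndrg2 were Eif2s3y, Ddx3y and Myh10 above and 2410003L11Rik and Gm4070 below, of which the first 2 are Y-linked. The OB set's DMSO library 2 held high levels of the short noncoding RNAs Rmrp (2069 FPKM) and Rpph1 (1285 FPKM). Both OB libraries numbered 1 held more granulocyte and megakaryocyte transcripts than the others of their set. Erythroid progenitor markers were present in all 12 libraries. They summed to 1546 to 1682 FPKM with DMSO and 1580 to 1686 FPKM with compound OB, which overlap, and to 1540 to 1925 FPKM with DMSO and 1434 to 1521 FPKM with compound PD, which do not.

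Granulocyte, megakaryocyte, mast cell and macrophage markers had higher sums in every PD library than in any OB library. The later granulocyte markers, 13 usable genes of neutrophils, summed to 112 to 426 FPKM with DMSO and 118.5 to 361.4 FPKM with compound OB, which overlap. In the PD set they summed to 11088 to 17061 FPKM with DMSO and 28732 to 38048 FPKM with compound PD, which do not. The 21 megakaryocyte markers summed to 659 to 1881 and 816 to 1354 FPKM in the OB set and to 3297 to 6259 and 6022 to 9948 FPKM in the PD set, with overlap in both. All 6 tested later granulocyte markers and all 20 tested megakaryocyte markers had an average above 0, with medians of 0.62 and 0.44. The medians were 1.17 and 0.84 for compound PD, against 0.09 and 0.07 for compound OB. As single libraries were left out, the average median ran from 0.43 to 0.91 for the later granulocyte list and from 0.30 to 0.69 for the megakaryocyte list. Both were highest without the OB set's DMSO library 1. Of these genes, Tubb1, the tubulin of platelets, had effects of 0.02 and 1.39 (average 0.71, adjusted p = 0.608). Lcn2, a neutrophil granule protein, had effects of 0.09 and 1.11 (average 0.60, adjusted p = 0.647), at mean levels of 1.28 FPKM in the OB set and 654.5 FPKM in the PD set. No marker of these lists passed without the block. In bulk libraries, more cells of a type and more RNA per cell cannot be told apart, and the part of these cells in the results was not tested. Macrophage markers summed to 43.4 to 74.9 FPKM with DMSO and 42.4 to 61.6 FPKM with compound OB, which overlap, and to 661 to 1103 FPKM with DMSO and 1711 to 2290 FPKM with compound PD, which do not. Of the 20 usable macrophage markers, Spic and Vsig4 were at 0 in every library, and only 3 were tested. Each of the 3 had effects of opposite sign, 2 of them above 0 for compound PD and 1 for compound OB. Their median average was 0.02, so the sums need not hold for each marker. Hepatocyte markers, with Ttr and Rbp4 at 0, summed to 1.8 to 6.4 FPKM and lymphoid markers to 0.4 to 2.3 FPKM.

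**Figure D3:**
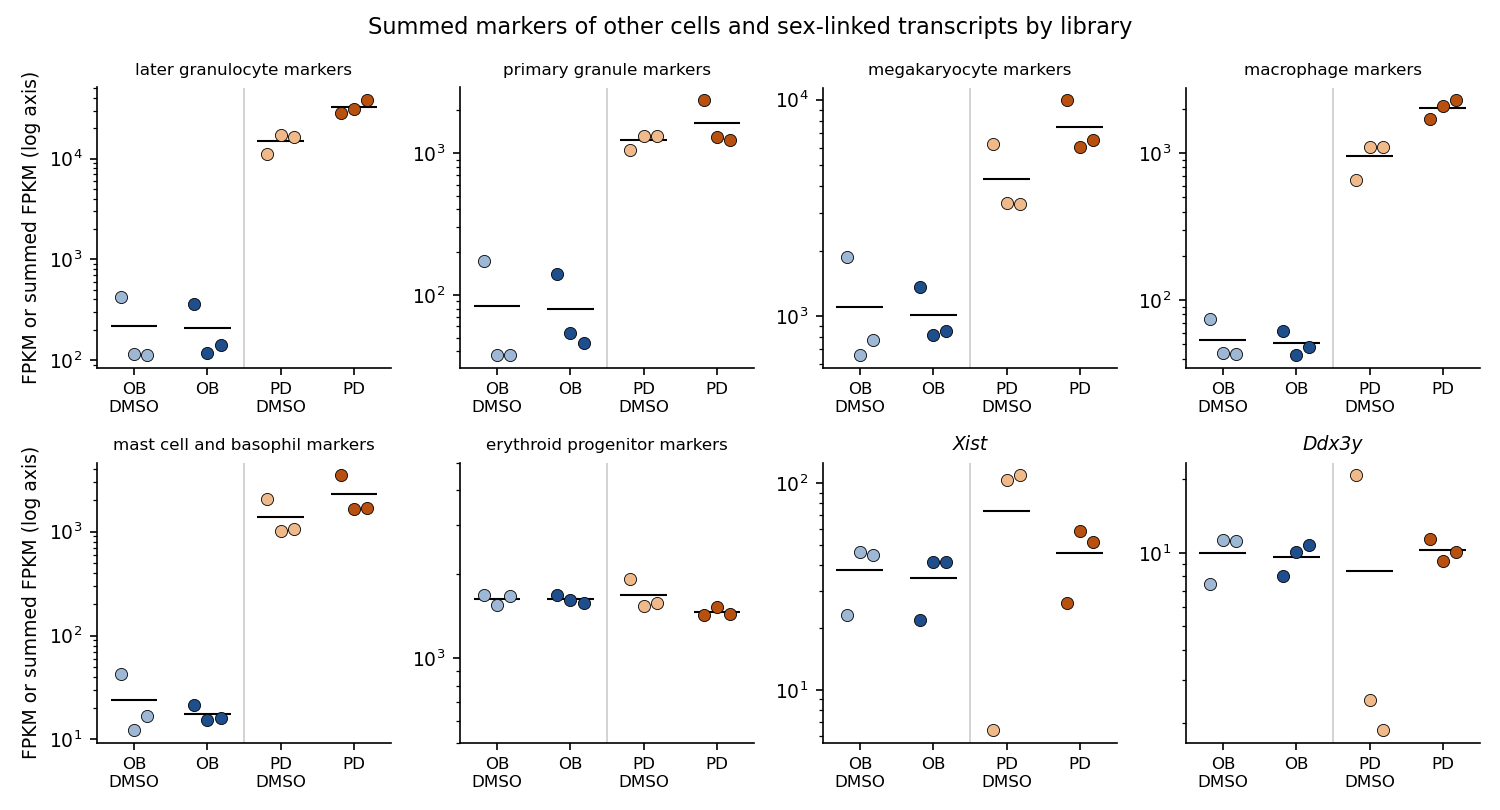
Summed FPKM of 6 marker lists and FPKM of Xist and Ddx3y (y axes, log scale) by group (x axis), with 1 point for each of the 12 libraries and a line at each group mean. Granulocyte and megakaryocyte sums were far higher in the PD set, and they overlapped between DMSO and compound OB but not between DMSO and compound PD for the later granulocyte list.

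Genes of glycogen turnover were the list that held Pygl. Of 13 tested members, 11 had an average above 0 and 6 had both effects above 0, with a median average of 0.12 (0.04 for OB and 0.30 for PD). Pygl was the single called member. The unadjusted p was under 0.05 for 4 members above 0 and none below, against 5.21% and 1.37% over all genes. Gys1, the glycogen synthase of most tissues, stood at 5.15, 4.22 and 5.55 FPKM with DMSO and at 7.89, 8.75 and 8.17 FPKM with compound OB. It stood at 6.21, 11.8 and 9.05 FPKM with DMSO and at 13.0, 12.1 and 11.0 FPKM with compound PD. The OB groups were separate, the PD groups overlapped, and the average of 0.53 (SE 0.14) did not pass (adjusted p = 0.566). Gbe1, the branching enzyme, was separate in both sets and averaged 0.51 (SE 0.17, adjusted p = 0.608). Pygb, the brain form of the phosphorylase, averaged 0.22 and was separate in the PD set only. The list's counts above 0 were 10 of 13 without the PD set's DMSO library 1, 10 without that library and the OB set's DMSO library 2 (median 0.07), and 11 without both OB libraries numbered 1.

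Kit, the stem cell factor receptor, had effects of 0.64 for OB and 0.54 for PD. It stood at 25.9, 23.1 and 23.2 FPKM with DMSO and at 36.8, 41.7 and 36.0 FPKM with compound OB. In the PD set it stood at 20.4, 21.8 and 22.7 FPKM with DMSO and at 41.2, 28.8 and 27.1 FPKM with compound PD. The groups did not overlap in either set, but library 1 of compound PD was far above the other two. Markers of mast cells and basophils, of which mast cells also carry KIT, were highest in that library too. Their sums were 3499, 1670 and 1689 FPKM with compound PD and 2056, 1009 and 1057 FPKM with DMSO, which overlap. In the OB set these sums were 12.3 to 42.4 and 15.3 to 21.4 FPKM, which overlap. The average of 0.59 (SE 0.11) did not pass (adjusted p = 0.187, and 0.170 with the block). Gata2 averaged 0.54 (SE 0.19, adjusted p = 0.647), with groups that overlapped in both sets, and it too was highest in library 1 of compound PD, at 89.3 FPKM against 62.7 and 46.1 FPKM. The part of mast cell transcripts in these values was not tested.

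The early progenitor list had 19 tested members, of which 16 had an average above 0, 13 had both effects above 0 and none had both below. Its median average was 0.20, with 0.15 for OB and 0.26 for PD, and it was 0.12 without library 1 of compound PD and 0.11 without the 2 DMSO libraries named next. None was called, and 4 had an unadjusted p under 0.05, all above 0, against 5.21% above 0 over all genes. The count above 0 was 17 without the PD set's DMSO library 1, 14 without that library and the OB set's DMSO library 2, and 17 without both OB libraries numbered 1. Il1rl1, a receptor of the interleukin family, had effects of 0.55 and 0.36, and stood at 25.6 FPKM in library 1 of compound PD against 16.16 and 14.96 FPKM in the others. Zfp36l2, an RNA-binding protein of BFU-E self-renewal, had effects of 0.46 and 0.24, and Nr3c1, the glucocorticoid receptor, 0.29 and 0.11. Myb averaged 0.18 and Myc 0.17, and both values turned below 0 without the 2 libraries named above, at -0.0061 and -0.0012. The list shares Fli1, a factor of early blood cells and megakaryocytes, with the megakaryocyte markers, and Fli1 had effects of -0.15 and 0.35. The part of the megakaryocyte and mast cell sums in this list was not tested.

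**Figure D4:**
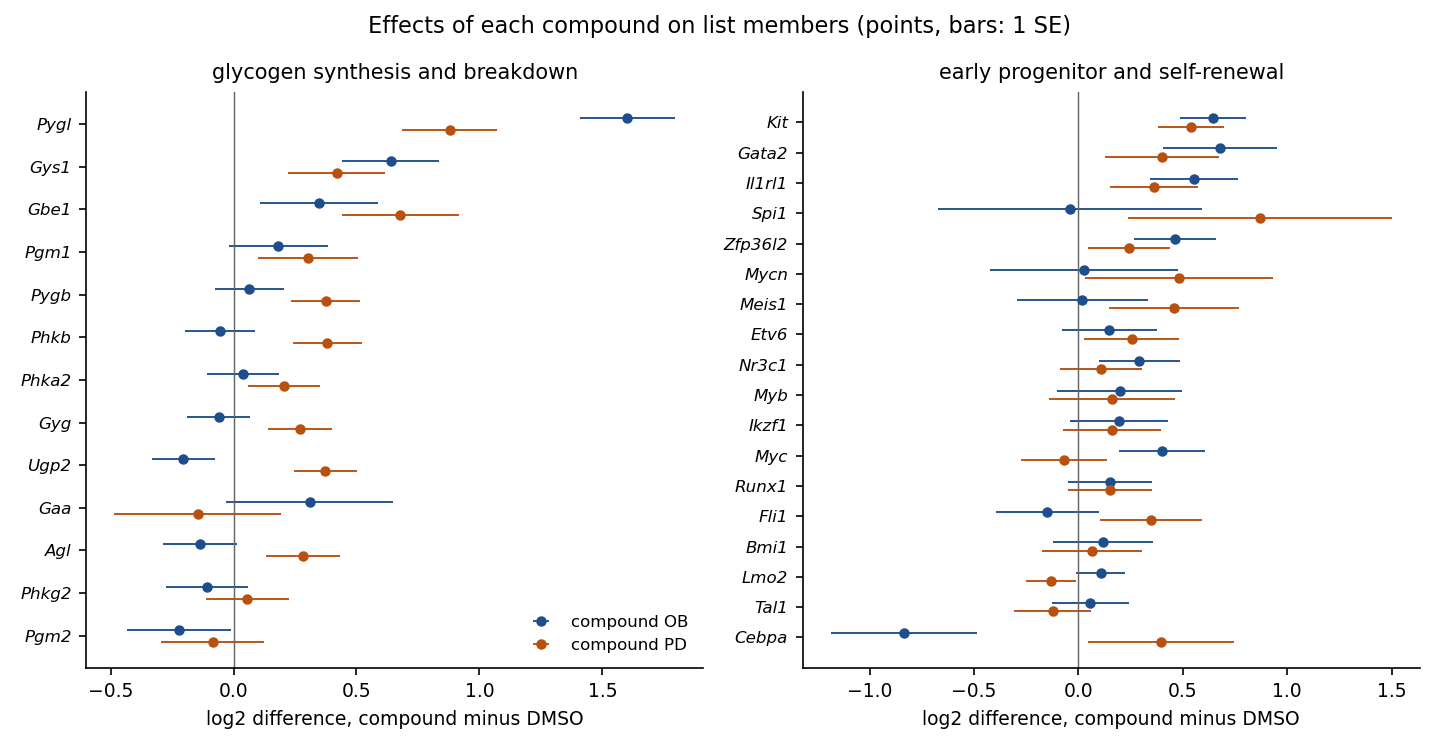
Effects of compound OB (blue) and compound PD (orange), as differences of log2(FPKM + 1) with bars of 1 SE, for the 13 tested members of the glycogen list (left) and 18 of the 19 of the early progenitor list (right), ordered by the average. Pygl, Gys1 and Gbe1 had both effects above 0 on the left, as did Kit, Gata2 and Il1rl1 on the right, while Spi1 had a larger PD effect.

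Progenitor cytokine receptors gave a similar count. Of 16 tested, 14 averaged above 0, 10 had both effects above 0 and 2 both below, with a median of 0.30 (0.12 for OB and 0.45 for PD). None was called, and the unadjusted p was under 0.05 for 8 above 0 and 1 below, against 5.21% and 1.37% over all genes. The count above 0 was 13, 13 and 14 without the same libraries. Kit and Il1rl1 lay above 0 for both compounds, whereas Cxcr4, a chemokine receptor, had effects of 0.19 and 0.93. The mean level of Cxcr4 was 1.64 FPKM in the OB set and 48.2 FPKM in the PD set, so its OB effect was measured at a low level. Csf2rb, the common beta chain of several cytokine receptors, was on the other side, with effects of -0.18 and -0.57 and an average of -0.37 (SE 0.16, adjusted p = 0.740). Epor, the erythropoietin receptor, averaged 0.10 with overlap in both sets.

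Downstream of these receptors, the list of STAT5 and cytokine targets held 20 tested genes, with 13 averages above 0 and a median of 0.12. The median was 0.08 without the OB set's DMSO library 2, and 0.18 without either the DMSO library 1 or the compound library 3 of the PD set. None was called, while 7 of the 20 had an unadjusted p under 0.05, all above 0, against 5.21% above 0 over all genes. Their average effects ran from 0.31 to 0.55. Id1, an inhibitor of differentiation factors, stood at 11.6, 11.3 and 15.8 FPKM with DMSO and at 14.3, 18.9 and 20.4 FPKM with compound OB. It stood at 8.67, 11.1 and 13.9 FPKM with DMSO and at 20.1, 15.1 and 19.3 FPKM with compound PD. The OB groups overlapped and the PD groups did not, and the average of 0.55 (SE 0.14) did not pass (adjusted p = 0.566). The others were Id2, Osm, Dusp6, Spry2, Stat5a and Pim3. Osm had effects of -0.12 for OB and 1.14 for PD, and Id2 0.06 and 0.80, whereas those of Spry2 were even (0.36 and 0.35). The mean level of Id2 was 1.00 FPKM in the OB set and 49.5 FPKM in the PD set, so little of an OB change could show on this scale. Of the list's 20 pairs of effects, 10 were above 0, 2 below, and 8 had opposite signs. Cish and Socs2, feedback inhibitors that STAT5 induces, averaged -0.14 and -0.12, so the list did not lie on 1 side of 0.

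Genes of later erythroid differentiation lay on the other side of 0, through compound PD. Of 46 tested, 38 averaged below 0, with a median of -0.14. That median was -0.02 without the PD set's DMSO library 1, -0.06 without library 1 of compound PD and -0.21 without DMSO library 3 of that set, and -0.05 without the PD set's DMSO library 1 and the OB set's DMSO library 2. The medians were 0.09 for OB and -0.39 for PD, and 33 of the 46 had effects of opposite sign. Both effects were below 0 for 11 of the 46, beside 18.5% of all genes. None was called, and 3 of the 46 had an unadjusted p under 0.05, all below 0, against 1.37% below 0 over all genes. Car2, a carbonic anhydrase of red cells, had effects of -0.19 and -0.56 (average -0.37, SE 0.11, adjusted p = 0.608). The count of averages above 0 rested on single libraries: it was 8 of 46 with all libraries, 20 without the PD set's DMSO library 1, and 16 without that library and the OB set's DMSO library 2. Heme synthesis gave 14 of 18 below 0, with opposite signs in 14, and its 4 averages above 0 became 7 without the PD set's DMSO library 1. Gata1 averaged 0.02 and Klf1 -0.09, each with overlapping groups in the OB set, and the value for Gata1 was -0.04 after median-ratio scaling.

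**Figure D5:**
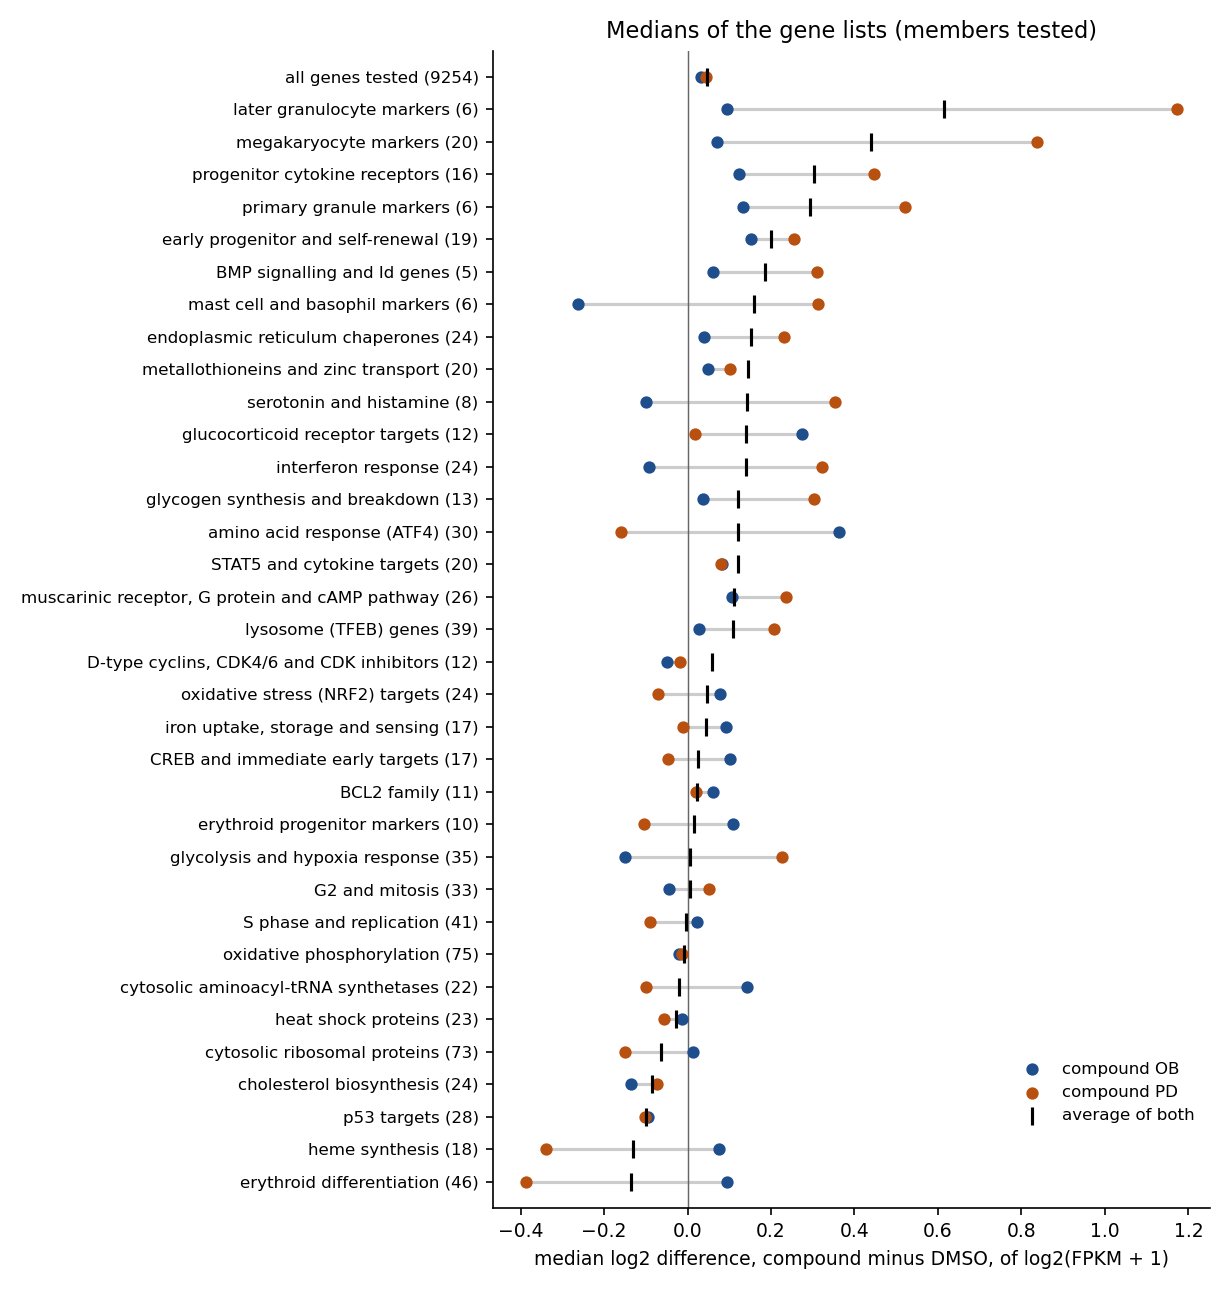
Median effect of the tested members of each gene list (number tested in brackets), as a difference of log2(FPKM + 1), for compound OB (blue), compound PD (orange) and their average (black line). For erythroid differentiation and the ATF4 list the compounds lay on opposite sides of 0, and for early progenitor genes and cytokine receptors on the same side.

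The amino acid response list shows how an average can look shared without being so. Its 30 tested genes, targets of the stress factor ATF4, had 25 averages above 0 and a median of 0.12 (0.18 without the PD set's DMSO library 1). All 30 effects were above 0 for compound OB (median 0.36), but only 5 were above 0 for compound PD (median -0.16). Cth, an enzyme of cysteine synthesis, had effects of 1.75 and 0.13 (adjusted p = 0.608). Its mean level was 31.7 FPKM in the OB set and 1.78 FPKM in the PD set, so its PD effect was measured at a low level. Interferon response genes gave the mirror image, with 22 of 24 averages above 0 and medians of -0.09 for OB and 0.32 for PD. Glycolysis and hypoxia genes cancelled, with 24 of 35 pairs of opposite sign and a median average of 0.01.

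Within that glycolysis and hypoxia list, 2 members were separate in both sets and in the same direction. Egln3 was above, as given, and Aldoc, the brain form of aldolase, was below. Aldoc stood at 10.3, 11.5 and 14.3 FPKM with DMSO and at 8.65, 5.25 and 8.04 FPKM with compound OB. It stood at 7.10, 5.26 and 7.18 FPKM with DMSO and at 3.39, 4.68 and 3.56 FPKM with compound PD. The gaps were narrow in both sets, and the average of -0.64 (SE 0.15) did not pass (adjusted p = 0.416). Hif3a, a hypoxia-inducible factor subunit, had effects of 1.31 and 0.18 and overlapped in the PD set.

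Lists of cell housekeeping differed in how even the 2 effects were. Endoplasmic reticulum chaperones had 23 of 24 averages above 0 and 15 pairs above 0, none below, with a median of 0.15 (0.09 without library 1 of compound PD). Their count above 0 was 22, 21 and 23 without the doubted libraries in the order given for the progenitor list. Lysosomal genes had 32 of 39 averages above 0 and 23 pairs above 0, with a median of 0.11, and counts of 31, 27 and 34 without those libraries. Its median was 0.18 without DMSO library 1 of the OB set and 0.07 without DMSO library 2. Ctsc, a lysosomal protease also abundant in granulocytes, had effects of 0.37 and 0.61 (adjusted p = 0.566). Both lists had larger medians for compound PD (0.23 and 0.21) than for OB (0.04 and 0.03). The later granulocyte sums were also higher with compound PD, and the part of granulocyte transcripts in these 2 lists was not tested. Cytosolic ribosomal proteins had 67 of 73 averages below 0, with a median of -0.06 (-0.10 without the PD set's DMSO library 1). This came through compound PD, with medians of 0.01 for OB and -0.15 for PD. Of the 73 pairs, 30 were below 0 and 42 had opposite signs. Cholesterol biosynthesis had 16 of 24 averages below 0 and 13 pairs below 0, a median of -0.08 (-0.05 without the PD set's DMSO library 1), and medians of -0.14 for OB and -0.07 for PD. Fdft1, squalene synthase, had effects of -0.28 and -0.29 and averaged -0.28 (SE 0.11, adjusted p = 0.697). Of the p53 targets, 19 of 28 averaged below 0 and 14 pairs were below 0, with medians of -0.09 and -0.10. The median average of that list, -0.10, ran from -0.20 to -0.01 as single libraries were left out. None of these genes was called.

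Genes whose 3 treated libraries all lay above, or all below, the 3 DMSO libraries in both sets were chosen after their values were seen. There were 44 above after both compounds (0.475%) and 16 below after both (0.173%), while 19 were above for OB and below for PD (0.205%) and 24 the reverse (0.259%). For a single compound the shares were 5.35% above and 3.36% below for OB, and 11.2% above and 3.84% below for PD. The counts depended on single libraries, and smaller groups separate more easily. Without the PD set's DMSO library 1 they were 65 above, 55 below, and 125 and 43 in opposite directions. Without that library and the OB set's DMSO library 2 they were 71 above, 123 below, and 128 and 97. Without both OB libraries numbered 1 they were 501 above, 85 below, and 107 and 123 in opposite directions.

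The averages of the 44 ran from 0.18 to 1.24 with a median of 0.40, and those of the 16 from -0.19 to -0.90 with a median of -0.35. No gene had a smaller effect of 1 or more. The smaller effect reached 0.5 for 5 of the 44: Pygl, Egln3, Parvg, Tns1 and Kit. Of the 16 it did so for Aldoc only. Tns1, a tensin that links actin to adhesion sites, stood at 3.71, 2.36 and 2.08 FPKM with DMSO and at 7.04, 7.50 and 5.88 FPKM with compound OB. It stood at 8.94, 13.0 and 13.0 FPKM with DMSO and at 26.1, 14.6 and 14.3 FPKM with compound PD. The OB gap was wide and the PD gap rested on a margin smaller than the spread of the treated libraries. Its average was 0.83 (SE 0.17, adjusted p = 0.263). Parvg, a parvin of blood cell adhesion sites, averaged 0.72 (SE 0.17, adjusted p = 0.442), with effects of 0.82 and 0.63. Arhgef3, a guanine nucleotide exchange factor, averaged 0.76 (SE 0.14, adjusted p = 0.171), with effects of 1.02 and 0.50. It stood at 2.43, 1.36 and 1.64 FPKM with DMSO and at 5.37, 3.79 and 4.88 FPKM with compound OB. In the PD set it stood at 6.29, 5.01 and 7.17 FPKM with DMSO and at 9.87, 7.86 and 9.47 FPKM with compound PD. Slc30a10, a manganese exporter, was below in both sets, with effects of -0.30 and -0.71 (adjusted p = 0.566).

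Promoters of 39 of the 44 genes above and 14 of the 16 below were matched in RefSeq on GRCm38.p6. The hypoxia core ACGTG was in 13 of the 39 (33.3%) and 4 of the 14 (28.6%: Aldoc, Fam118b, Prpf6 and Slc30a10), against 31.1% of the promoters of tested genes. The metal response core TGCGCNC was in 12 of the 39 (30.8%) and 6 of the 14 (42.9%), against 31.4%. The full cAMP response element TGACGTCA was in 1 of the 39, that of Fam174a, and in none of the 14. The GATA site was in 3 of the 39 (Cela1, Nrm and Snx18) and 1 of the 14 (Dennd2c), the sterol element in Aldoc alone, and the amino acid response element in none. These shares describe letters on both strands of 300 bases, not binding sites.

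None of the receptor and factor genes of the study's setting was called. Creb1, the cAMP response factor, averaged -0.01 and had no clear sign, with 0.03 when the 2 libraries that stood apart were left out. Crem, its relative, had effects of -0.25 and -0.56 and an average of -0.40 (SE 0.24, adjusted p = 0.801). Its PD values were 80.9, 30.8 and 21.8 FPKM with DMSO and at 25.4, 23.4 and 27.7 FPKM with compound PD. The PD groups overlapped, and the average was -0.14 without DMSO library 1. Chrm4, a muscarinic receptor gene, was below the filter, with means of 1.14 FPKM in the OB set and 0.408 FPKM in the PD set, and was not tested.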

How the data were processed

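The authors deposited 1 table of FPKM values per RNA library, with 2 decimals. Per the submitters' processing notes, STAR and the mouse build mm10 were used; the sources used here give no version, annotation, strand setting or FPKM program. Each OB library lists 24054 genes and each PD library 54752, so the gene models of the sets differ. Removed were 428 OB entries whose 202 names were cut at a hyphen (globin and H2 genes among them), 27 entries turned into dates in each set, and 185 PD entries of repeated symbols, leaving 23599 and 54540 symbols, of which 22269 were shared.

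Tests were run on log2(FPKM + 1) for the 9254 genes that averaged 1 FPKM or more in each set, with limma 3.58.1 (R 4.3.3, statmod 1.5.0; 4 group means, trended robust moderation), two-sided, with Benjamini-Hochberg adjustment at 0.05. The fit was checked on simulated data with independent noise. Those data hold neither the shared deviations of the OB libraries nor a library that stands apart. The check therefore covers the size of the estimates and not the calls in these data. FPKM keep no read depth, so no counting interval is given.

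The replicate numbers come from the labels. Deviations from the group means of libraries with the same number correlated at 0.858, 0.551 and 0.76 in the OB set. In that set, libraries 2 and 3 also correlated across numbers, at 0.39 and 0.474, and library 1 correlated with them at -0.76 to -0.605. These values pair the OB libraries numbered 1 clearly and those numbered 2 and 3 less clearly. In the PD set the same-number values were -0.052, -0.015 and -0.034, which does not pair them. The fit without the block was the main one.

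Members, the 39 gene lists (9 of them cell markers) and the rule for named genes were chosen with earlier results of these data known. The rule named called genes with effects of the same sign, in each list the called members or else the 2 of smallest p, and fixed regulators such as Gata1, Kit and Creb1. Genes named outside it were chosen after their values were seen. 1 list member is not reported by name here. Figures were drawn with matplotlib 3.10.9. Alternatives covered the pseudocount, filter, scaling, model, block, weights and each library left out.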

Additional observations from a re-analysis of the deposited data

Results flagged for a closer look

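The 19 and 24 genes without overlap in either set whose effects had opposite signs include 8 examined here, chosen after their values were seen. In each, every compound OB library lay on one side of its DMSO libraries and every compound PD library on the opposite side of its own. Tested over all genes with limma, none of these differences passed. Pkm, the pyruvate kinase of glycolysis, had an effect of -0.8118 for OB and 0.7346 for PD (adjusted p = 0.0900), with an average of -0.04. Shmt2, a mitochondrial enzyme of serine use, had 0.4973 for OB and -0.2606 for PD (adjusted p = 0.346). Cd300a, an inhibitory receptor of myeloid cells, had -0.3453 and 0.6918 (adjusted p = 0.330). Plin3, a lipid droplet coat protein, had -0.5774 and 0.4961 (adjusted p = 0.559). The other 4 each had an adjusted p of 0.675. Cep55, a protein of cell division, had -0.365 and 0.7525, and Ier3, an early response gene, had -0.5501 and 0.3587. Ptdss2, a phosphatidylserine synthase, had 0.1599 and -0.7041, and Pigx, an enzyme subunit of GPI anchor synthesis, had -0.2301 and 0.4814.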

How the results depend on the processing

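Counts of called genes in the average (1 higher and 1 lower as reported) were small and moved with several choices, and the cause was not tested. Genes higher were 2 with no filter on low values, 2 with a fit for each set alone, and 393 with array weights. With the replicate block they were 5, and 5 again with median-ratio scaling added, where Lcn2 was called and Mt2 was not. Genes lower were 2 with a pseudocount of 0.1, 0 in the additive fit of set and treatment, 3 with a fit for each set alone, and 166 with array weights. With the replicate block they were 2, with or without median-ratio scaling. Leaving out each library in turn gave 1 to 4 higher and 1 to 3 lower. Among alternatives chosen after seeing the data, the block in the OB set alone gave 3 higher and 1 lower. Leaving out DMSO library 2 of the OB set and DMSO library 1 of the PD set gave 2 and 3, and leaving out both OB libraries numbered 1 gave 2 and 1. The OB block with DMSO library 1 of the PD set left out gave 56 and 37. The test of both compounds, which the additive fit does not give, called 0 genes in each of the other settings, with 16 genes at an unadjusted p under 0.05 as reported.

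Of 115 genes named or compared, those that changed sign had averages of 0.18 or less on either side of 0. Myb was -0.0607 with array weights, -0.0061 without the 2 DMSO libraries above, and -0.0419 with the OB block and the PD set's DMSO library 1 left out. Myc was -0.0012 without the 2 DMSO libraries. Dnase2a was 0.0847, 0.0509 and 0.0935 under the 3 settings given for Myb. Plin3 was 0.0381 without both OB libraries numbered 1. Gata1 was -0.0358 with median-ratio scaling, with or without the block, and -0.0171 without the 2 DMSO libraries, and Creb1 was then 0.0344. Leaving out single libraries also turned the sign of Myb, Dnase2a, Plin3, Pkm, Gata1 and Creb1, within -0.0419 to 0.3016 for Myb, -0.1504 to 0.0935 for Dnase2a, -0.0948 to 0.057 for Plin3, -0.1216 to 0.0528 for Pkm, -0.0315 to 0.0899 for Gata1 and -0.1405 to 0.0824 for Creb1. Depth in reads is unknown, the design has 3 libraries a group, and the replicate block could not be tested against recorded animals or cultures.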

Other observations

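Serotonin and histamine genes were split between the compounds. Tph1 stood at 155.2, 112.9 and 138.8 FPKM with DMSO and at 298.6, 380.1 and 387.9 FPKM with compound OB, with an effect of 1.39, whereas Slc6a4, the serotonin transporter, had effects of -0.27 and 0.79. All 8 tested members were above 0 for compound PD, and 2 for compound OB.

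All 4 tested linker histone transcripts, which package the DNA between nucleosomes, had both effects below 0, with a median average of -0.60. The OB effects were larger, with a median of -1.14 against -0.10 for PD. H1f0 had effects of -1.13 and -0.10 (average -0.62, SE 0.15, limma adjusted p = 0.446). Hist1h1b stood at 26.0 FPKM in the OB set's DMSO library 2, beside 1.49 and 1.28 FPKM in the other DMSO libraries of that set.

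Among zinc transporters, Slc39a11 and Slc39a6, which bring zinc into the cytosol, averaged 0.55 (adjusted p = 0.529) and 0.46 (adjusted p = 0.566), whereas Slc39a8 of the same family averaged -0.25 (adjusted p = 0.757). In that list of 20 tested genes, 3 members above 0 and 3 below had an unadjusted p under 0.05, against 5.21% and 1.37% over all genes. Mt3, a metallothionein, had effects of 0.03 and -2.16, at low mean levels of 2.56 FPKM in the OB set and 2.85 FPKM in the PD set. Its average was -1.07, against 0.33 for Mt1 and 1.14 for Mt2. Gm3417 averaged -1.21 (SE 0.19, adjusted p = 0.0902), with effects of -0.03 and -2.39, and as a member of a family of near-identical copies its value is uncertain.

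Oxidative phosphorylation genes had 34 of 75 averages above 0, where all tested genes had 62.6%, with a median of -0.01. Without the PD set's DMSO library 1, 18 were above 0, where all tested genes had 4659 above and 4595 below. Genes of mitosis had 18 of 33 above 0 and a median of 0.01. DNA replication genes had 19 of 41 averages above 0, and 6 without the PD set's DMSO library 1. Heat shock proteins had 8 of 23 above 0, and 3 to 12 as single libraries were left out, and genes of iron handling 10 of 17. The list of muscarinic receptor, G protein and cAMP genes had 21 of 26 averages above 0 and 14 with both effects above 0, with a median of 0.11 that reached 0.17 without DMSO library 1 of the OB set or DMSO library 3 of the PD set. Within it Gnaq, a G protein alpha subunit, had effects of 0.11 and 0.79 (average 0.45, SE 0.16, adjusted p = 0.649). The mean level of Gnaq was 1.28 FPKM in the OB set and 9.12 FPKM in the PD set. Of the CREB and immediate early targets, 9 of 17 averaged above 0. None of these genes was called.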
